A study of Rattus norvegicus with 24 samples.

Results

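The comparison of needling with current against needling without it in the central amygdala (CEA) rests on 6 RNA-seq libraries, 3 from rats given electroacupuncture (EA) and 3 from rats given sham electroacupuncture (SEA), of 24 libraries in the series. Members were taken by the group named in the sample labels and by no measured value. All 6 libraries are from male Sprague-Dawley rats, bought at 7 weeks of age, that underwent partial hepatectomy (HT). EA rats had needles placed at the acupoints Zusanli (ST 36) and Sanyinjiao (SP 6) and received pulsed current the day before and again right after the operation, awake in a restraint device. SEA rats had the same needles, surgery and restraint, with the stimulator left unconnected, so the groups differ by label in the current alone. Tissue was taken a day after the last session. The remaining groups were hepatectomy with restraint only (CEA HT) and unoperated, restrained rats (NC, normal control), and the same 4 groups were sampled in the hypothalamic paraventricular nucleus (PVN). The labels do not say whether a library is 1 rat or a pool, and the study's methods say that the brain samples did not come from the same animal but from the same batch, so p-values measure only the spread between these samples, which may be technical.

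The CEA is the output nucleus of the amygdala and is built mainly of GABAergic neurons that carry peptides such as enkephalin, somatostatin, neurotensin and corticotropin-releasing hormone. It passes stress and pain signals to the hypothalamus and brainstem. The comparison of EA with SEA asks what the current adds to the insertion of needles and to restraint after surgery. One gene group that comes up below is the interferon-stimulated genes. Type I interferon binds its receptor on neurons and glia, and genes whose promoters hold an element of repeated GAAA motifs are then transcribed, among them sensors of viral RNA, antiviral enzymes and the Isg15 modification system. Irf7, itself one of these genes, amplifies interferon production.

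Total counts were 13838691, 14400883 and 18607032 in the EA libraries and 15582871, 17026144 and 13152772 in the SEA libraries. Levels are given as CPM, that is counts scaled to a common library size with TMM factors, in the order of replicates 1, 2 and 3 as the table's first header names them (a second header line exchanges CEA EA 2 and 3), and 1 count was worth 0.0537 to 0.0760 CPM before scaling. Median correlations of log2 CPM were 0.973 within EA, 0.976 within SEA and 0.977 between the groups, so the libraries of a group were no more alike than libraries of different groups. Gad1, the GABA-synthesising enzyme, was present in every library, at 485, 468 and 456 CPM in EA and at 559, 529 and 412 CPM in SEA. It does not tell the CEA from other GABAergic tissue. The summed GABA transmission genes averaged 4852 CPM in CEA EA and 4792 CPM in PVN EA. Markers of neighbouring tissue differed by library. The summed level of 9 striatal markers ranged from 2538 CPM in SEA 3 to 7436 CPM in SEA 2, and that of 5 thalamic markers from 104 CPM in SEA 2 to 605 CPM in EA 2 and 675 CPM in SEA 3. The choroid plexus markers summed to 398 CPM in EA 1 and 1865 CPM in SEA 2, and to between 10.7 and 26.1 CPM in the other 4 libraries. EA 2 also had 3.80% of its counts on the mitochondrial genome against 10.1% to 13.4% in the rest. The mean mitochondrial share was 9.59% ± 5.09 in EA and 11.0% ± 1.06 in SEA (SD, n = 3 each), with p = 0.9 in a two-sided exact permutation test whose smallest possible p is 0.1. In bulk tissue, fewer cells of a type and less RNA per cell cannot be told apart.

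The genes with the smallest unadjusted p were Natd1, with 2, 2 and 0 counts in EA against 32, 30 and 42 in SEA, and Hmgb3, an HMG-box chromatin protein, with about 2 times the SEA level in EA. No gene passed correction for multiple testing. Of 16322 genes tested by edgeR's quasi-likelihood test, 0 had a Benjamini-Hochberg adjusted p under 0.05 (0%), and the smallest adjusted p was 0.9999. At an unadjusted p under 0.05, 324 genes (1.99%) differed, 187 higher (1.15%) and 137 lower (0.839%) in EA, where 816 would be counted if none changed. In 1113 genes (6.82%) the CPM of the groups did not overlap, 491 with EA higher (3.01%) and 622 with EA lower (3.81%). The median absolute log2 fold change was 0.11, below the median standard error of 0.18. DESeq2 with the same adjustment called 5 genes on the same counts: Natd1 and RGD1563601 lower in EA, Epb41l1 and Hmgb3 higher, and an unannotated transcript on chromosome 15 (start 3691521, end 3750001) lower. Their adjusted p in DESeq2 were 0.000624, 0.0292, 0.00695, 0.00695 and 6.99e-05. The unannotated transcript stood at 10.8, 9.36 and 7.995 CPM in EA and at 23.3, 27.0 and 49.4 CPM in SEA. RGD1563601 stood at 1.66, 2.21 and 1.36 CPM in EA and at 2.44, 13.2 and 15.2 CPM in SEA. Both are lower in every EA library than in any SEA library, and SEA 1 lies near the EA level of RGD1563601. Both also varied widely without needles. The unannotated transcript was at 7.05, 8.13 and 42.1 CPM in CEA HT and at 7.02, 14.8 and 24.7 CPM in CEA NC. RGD1563601 was at 11.9, 2.43 and 18.7 CPM in CEA HT and at 15.4, 1.60 and 18.9 CPM in CEA NC.

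Among the 10 genes with the smallest unadjusted p that were higher in EA without overlap, log2 fold changes ran from 0.38 to 1.61. Hmgb3 (chromosome 17, start 36690249, end 36694325 in the deposited annotation) stood at 13.4, 18.4 and 14.97 CPM in EA and at 6.86, 6.96 and 8.59 CPM in SEA. Its log2 fold change was 1.08 ± 0.18 (SE), with an unadjusted p of 0.000379 and an adjusted p of 0.9999 in edgeR. The CEA HT libraries were at 13.2, 12.7 and 11.5 CPM and the NC libraries at 15.7, 7.81 and 14.5 CPM, so the SEA libraries were low together with NC 2. In the PVN the log2 fold change of Hmgb3 was -0.35, and the difference between the regions was 1.42 ± 0.32 (SE) with an unadjusted p of 0.000897 and an adjusted p of 0.9999 in edgeR's interaction test. The genes named here were chosen for their CEA difference, which is part of that interaction, so their small interaction p are no independent result. Epb41l1, which encodes a protein of the neuronal membrane skeleton, stood at 55.6, 52.6 and 23.4 CPM in EA and at 13.3, 18.8 and 11.3 CPM in SEA. The log2 fold change of Epb41l1 was 1.61 ± 0.34 (SE), and EA 3 was closer to the SEA libraries than to the other EA libraries. In the PVN the order of Epb41l1 was the opposite, with 9.40, 9.22 and 9.63 CPM in EA and 11.3, 20.1 and 52.3 CPM in SEA. The difference between the regions for Epb41l1 was 3.18 ± 0.67 on the log2 scale, with an unadjusted p of 0.000498 and an adjusted p of 0.9999 in edgeR's interaction test.

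Abcg2, an efflux transporter of the blood-brain barrier, stood at 30.5, 36.6 and 32.2 CPM in EA and at 19.3, 23.6 and 19.9 CPM in SEA. Wfdc1, a secreted protein with a whey acidic protein domain, was at 45.4, 40.6 and 45.0 CPM in EA and at 27.5, 26.2 and 32.5 CPM in SEA. Htra1, a secreted serine protease, was at 233, 247 and 197 CPM in EA and at 122.8, 162 and 152 CPM in SEA. These genes were also higher in every EA library of the PVN than in any SEA library there, as were 5.14% of PVN genes, with PVN log2 fold changes of 0.62 for Abcg2, 0.51 for Wfdc1 and 0.46 for Htra1. In the CEA, HT 2 exceeded all EA libraries for each of them, at 44.3 CPM for Abcg2, 105 CPM for Wfdc1 and 495 CPM for Htra1. Prex2, an activator of the GTPase Rac, was at 317, 293 and 270 CPM in EA and at 179, 219 and 153 CPM in SEA, with a log2 fold change of 0.70 ± 0.15 (SE). For Prex2 the PVN levels overlapped, and its difference between the regions was 0.76 on the log2 scale with an unadjusted p of 0.00171. Nwd1, Sh3tc1, Sema3d, a secreted guidance factor, and Sult1d1, a cytosolic sulfotransferase, completed the set with log2 fold changes of 0.59, 0.81, 0.56 and 0.38. Of the 10 genes, 7 were also above 0 in the PVN, as were 49.7% of all PVN genes, and 5 of them had an unadjusted p under 0.05 there, against 2.20% of PVN genes higher in EA at that threshold. Whether the PVN libraries are from other rats is not settled here, so this is no independent repeat. In edgeR's interaction test 5 of the 10 had an unadjusted p under 0.05, against 2.34% of all genes. The rule that chose them by their CEA difference favours this.

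**Figure D1:**
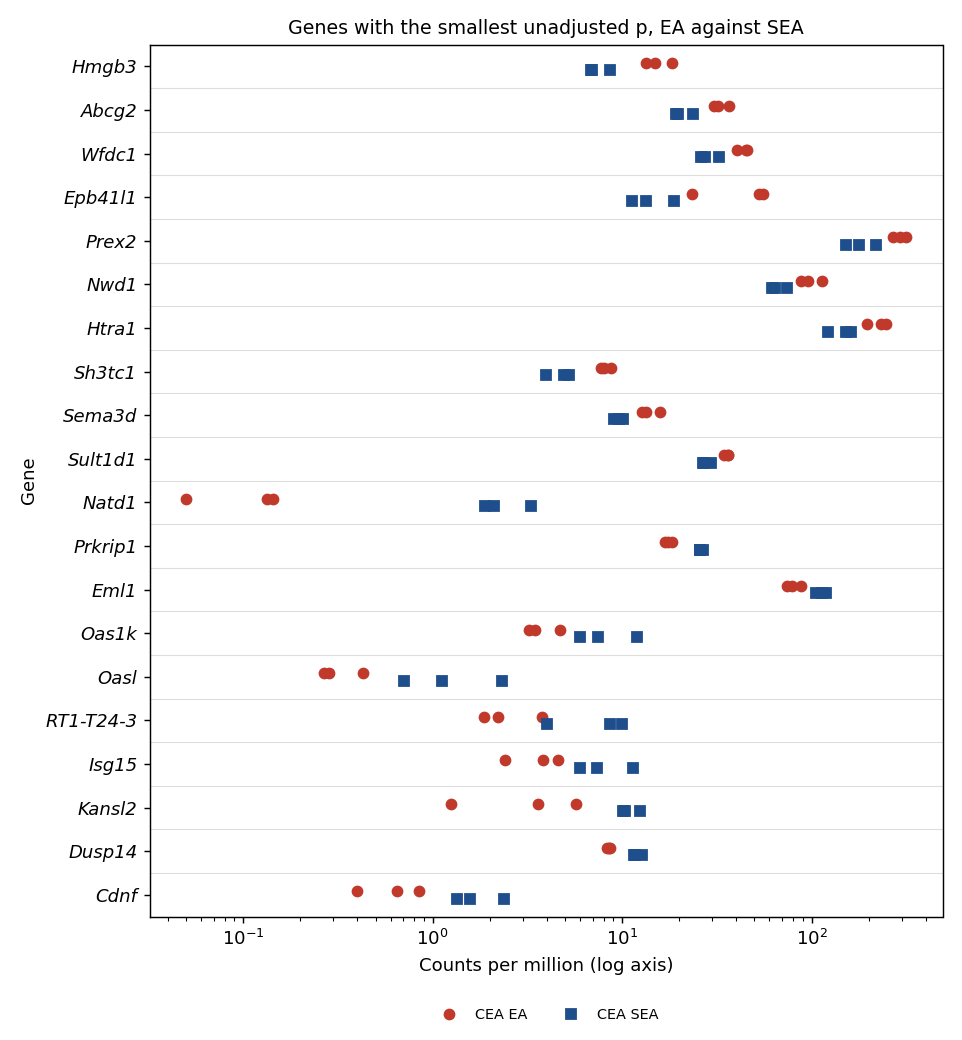
CPM on a log axis of the 10 genes higher and the 10 lower in EA with the smallest unadjusted p and no overlap, 1 point per CEA library (EA red circles, SEA blue squares); a level of 0 (Natd1 in EA 3) is drawn at 0.05 CPM. No overlap was part of the rule that chose them; the spread within a group is wide for Epb41l1 (23.4 to 55.6 CPM in EA) and Kansl2 (1.25 to 5.75 CPM in EA) and narrow for Dusp14 (8.35 to 8.62 CPM in EA).

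Of the 10 genes lower in EA by the same rule, Oas1k, Oasl and Isg15 are interferon-stimulated genes, and RT1-T24-3 is a class I histocompatibility gene. RT1-T24-3 stood at 1.87, 2.21 and 3.80 CPM in EA and at 8.64, 10.04 and 4.02 CPM in SEA, and reads of this multigene family may be split between near-identical copies. Natd1, whose counts are given above, varied as widely without needles, with 1, 3 and 1 counts in CEA HT and 0, 35 and 2 in CEA NC. Prkrip1 was at 18.4, 16.9 and 17.5 CPM in EA and at 25.8, 25.7 and 26.6 CPM in SEA, with a log2 fold change of -0.55 ± 0.11 (SE). Eml1, a microtubule-associated protein, was at 78.8, 74.3 and 87.9 CPM in EA and at 114, 106 and 119 CPM in SEA, with a log2 fold change of -0.48. Both were also lower without overlap in the PVN, as were 5.01% of PVN genes, at log2 fold changes of -0.29 for Prkrip1 and -0.34 for Eml1. Kansl2, a subunit of a histone acetyltransferase complex, was at 3.60, 5.75 and 1.25 CPM in EA and at 10.4, 10.1 and 12.4 CPM in SEA. The CEA HT libraries lay at 2.61, 3.07 and 0.901 CPM for Kansl2, below or within the EA range. Dusp14, a dual-specificity phosphatase, was at 8.35, 8.56 and 8.62 CPM in EA and at 11.7, 12.7 and 11.6 CPM in SEA. Cdnf, a neurotrophic factor of the endoplasmic reticulum, was at 0.648, 0.401 and 0.851 CPM in EA and at 2.37, 1.57 and 1.34 CPM in SEA. In the PVN, 8 of the 9 of these genes that could be tested were below 0, and 7 had an unadjusted p under 0.05, against 3.0% of PVN genes lower in EA at that threshold. This too is no independent repeat. In edgeR's interaction test 3 of these genes had an unadjusted p under 0.05, against 2.34% of all genes.

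Most interferon-stimulated genes had a log2 fold change below 0. The list of 64 was drawn up from general knowledge after Isg15, Oas1k and Oasl had been seen among the leading genes, so its counts describe these libraries and carry no test. Of 55 members tested, 52 had a log2 fold change below 0, against 48.8% of all genes, and the median was -0.57, against 0.00 over all genes. At an unadjusted p under 0.05, 16 members were lower and 0 higher, against 0.839% and 1.15% of all genes. The count of 16 was 9 with a replicate block, against 0.576% of all genes lower in that fit. With that block and CEA EA 2 and 3 exchanged it was 29, against 1.53%. In a fit of all 8 groups it was 25 of 57, against 1.78%. Each of these fits had 0 members higher. In 16 members the libraries did not overlap with EA lower, against 3.81% of all genes. None passed adjustment over all genes (0 of 55). The 16 members at p under 0.05 had log2 fold changes from -2.06 to -0.47, and they are named below although, apart from the leading genes, they were singled out after their values were seen. The microglial markers, for comparison, had 8 of 12 members above 0 with a median of 0.03.

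Of these 16 genes 12 had a RefSeq promoter in the table (GRCr8, 250 bases before to 50 after the gene start), and 7 of the 12 (58.3%) held the core of the interferon-stimulated response element, GAAANNGAAA, on either strand. Promoter stretches are shown for those 7. The core is in capitals and reads TTTCNNTTTC where it lies on the strand opposite to the gene. Each stretch is 5′ to 3′ along the gene's strand. They lie at chr1:205800033-205800142 (minus strand) for Irf7, chr12:41330375-41330490 (plus) for Oas1a, chr12:47383277-47383386 (minus) for Oasl2, chr6:48788208-48788317 (minus) for Rsad2, chr16:18255033-18255148 (minus) for Bst2, chr2:234005646-234005755 (plus) for Gbp2 and chr10:104127839-104127948 (minus) for Lgals3bp.
Irf7: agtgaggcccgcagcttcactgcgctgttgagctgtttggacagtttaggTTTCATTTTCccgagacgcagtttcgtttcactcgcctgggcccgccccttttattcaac
Oas1a: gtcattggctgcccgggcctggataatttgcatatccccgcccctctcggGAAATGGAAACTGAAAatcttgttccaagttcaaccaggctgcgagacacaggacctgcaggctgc
Oasl2: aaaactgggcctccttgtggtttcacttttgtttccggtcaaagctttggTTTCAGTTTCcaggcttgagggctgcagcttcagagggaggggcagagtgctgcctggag
Rsad2: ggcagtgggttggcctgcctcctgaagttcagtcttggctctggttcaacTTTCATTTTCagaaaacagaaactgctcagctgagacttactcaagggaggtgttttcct
Bst2: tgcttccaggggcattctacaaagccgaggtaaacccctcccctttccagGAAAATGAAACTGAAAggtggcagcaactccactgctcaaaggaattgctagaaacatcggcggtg
Gbp2: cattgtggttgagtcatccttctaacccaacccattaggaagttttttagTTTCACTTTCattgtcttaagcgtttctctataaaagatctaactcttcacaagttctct
Lgals3bp: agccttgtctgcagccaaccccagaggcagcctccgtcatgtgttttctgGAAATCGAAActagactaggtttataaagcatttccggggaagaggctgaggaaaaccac
In Oas1a and Bst2, 2 overlapping copies of the core share a GAAA and form 1 run. The core began 69 bases before the gene start in Irf7, 41 in Oas1a, 151 in Oasl2, 147 in Rsad2, 131 in Bst2, 31 in Gbp2 and 50 in Lgals3bp. Of the 64 listed genes 48 had a promoter in the table and 33 of those (68.8%) held the core, against 3.92% of all 33469 promoters. A match describes the letters and not the use of a site, and the promoter build is not that of the counts.

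Among the regulators, Irf7 stood at 4.53, 3.28 and 6.07 CPM in EA and at 10.2, 26.8 and 7.96 CPM in SEA. The groups did not overlap, and SEA 2 was more than 2-fold above any other EA or SEA library of the CEA. The log2 fold change of Irf7 was -1.67 ± 0.48 (SE), with an unadjusted p of 0.00874 and an adjusted p of 0.9999 in edgeR. Without SEA 2 it was -0.96 (unadjusted p = 0.0144 in edgeR), and without both libraries numbered 2 it was -0.76. Irf9, a transcription factor of the interferon response, was at 12.6, 10.3 and 12.9 CPM in EA and at 17.2, 19.9 and 13.2 CPM in SEA, with EA 3 and SEA 3 nearly level.

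Isg15 and 2 enzymes of its modification, Uba7 and Usp18, were among these 16. Isg15, the ubiquitin-like modifier (chromosome 5, start 173624310, end 173626248 in the deposited annotation), stood at 3.82, 2.41 and 4.59 CPM in EA and at 7.38, 11.4 and 5.99 CPM in SEA. Means were 3.60 ± 1.11 and 8.26 ± 2.82 CPM (SD, n = 3 each), and the log2 fold change of Isg15 was -1.17 ± 0.33 (SE). The CEA HT libraries lay at 3.98, 4.22 and 4.38 CPM and the NC libraries at 4.80, 6.86 and 3.65 CPM, so Isg15 was nearer to the unneedled groups in EA than in SEA. Its log2 fold change was -0.87 without SEA 2 and -0.66 without both libraries numbered 2. Uba7, which activates Isg15 for transfer, was at 2.81, 2.94 and 3.86 CPM in EA and at 4.94, 8.84 and 3.63 CPM in SEA. Usp18, which removes Isg15 and restrains the interferon receptor, was at 0.792, 1.27 and 2.21 CPM in EA and at 3.56, 9.97 and 2.60 CPM in SEA. Usp18 did not overlap between the groups, while SEA 3 lay below EA 3 for Uba7. The log2 fold change of Usp18 was -1.88 ± 0.59 (SE) with all libraries and -1.08 without SEA 2.

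The oligoadenylate synthetases, which sense double-stranded RNA, gave 4 of the 16. Oas1k was at 4.68, 3.48 and 3.23 CPM in EA and at 7.45, 11.98 and 5.99 CPM in SEA. Oasl2 was at 5.25, 3.88 and 3.52 CPM in EA and at 7.19, 16.4 and 6.38 CPM in SEA. Both were lower in every EA library, at log2 fold changes of -1.14 and -1.23. Oasl had 6, 4 and 5 counts in EA and 17, 37 and 9 counts in SEA. Oas1a was at 0.792, 0.802 and 2.61 CPM in EA and at 2.90, 6.34 and 2.36 CPM in SEA, where EA 3 exceeded SEA 3. Because these genes form families in neighbouring copies, reads may be split between members.

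Of the antiviral effectors, Mx1, a GTPase that blocks viral replication, was at 1.51, 0.401 and 1.59 CPM in EA and at 2.31, 4.14 and 2.36 CPM in SEA. Rsad2, the enzyme viperin, was at 2.59, 1.54 and 3.57 CPM in EA and at 4.62, 6.52 and 3.94 CPM in SEA. Gbp2, a guanylate-binding protein, was at 3.31, 2.34 and 5.44 CPM in EA and at 6.26, 10.2 and 5.60 CPM in SEA. For each of the 3, EA 3 was the highest EA library and lay below the lowest SEA library. Bst2, which tethers budding virions to the cell, was at 4.18, 4.14 and 7.48 CPM in EA and at 8.90, 15.1 and 5.91 CPM in SEA. Parp9, a partner of the ubiquitin ligase Dtx3l, was at 7.85, 6.35 and 10.2 CPM in EA and at 11.1, 19.1 and 11.98 CPM in SEA. Rtp4, a receptor transport protein, was at 2.95, 2.34 and 2.04 CPM in EA and at 4.09, 9.53 and 4.26 CPM in SEA. Bst2 overlapped between the groups, and Parp9 and Rtp4 did not, with log2 fold changes of -0.77 and -1.27. Lgals3bp, a secreted galectin-binding glycoprotein, was at 10.6, 5.82 and 10.9 CPM in EA and at 14.2, 27.2 and 11.2 CPM in SEA, and its log2 fold change of -0.93 was -0.46 without SEA 2.

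The members next in order of p were Mx2, with a log2 fold change of -0.77 and an unadjusted p of 0.0587, the RNA sensor Ifih1, with -0.76 and 0.0629, the immunoproteasome subunit Psmb8, with -0.79 and 0.0635, and the Isg15 ligase Herc6, with -0.74 and 0.0778. The 3 members above 0 were Nmi, Irf1 and Cmpk2, at 0.10, 0.07 and 0.01. Ifit1 varied by library, with 19, 0 and 1 counts in EA and 62, 1 and 35 counts in SEA.

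**Figure D2:**
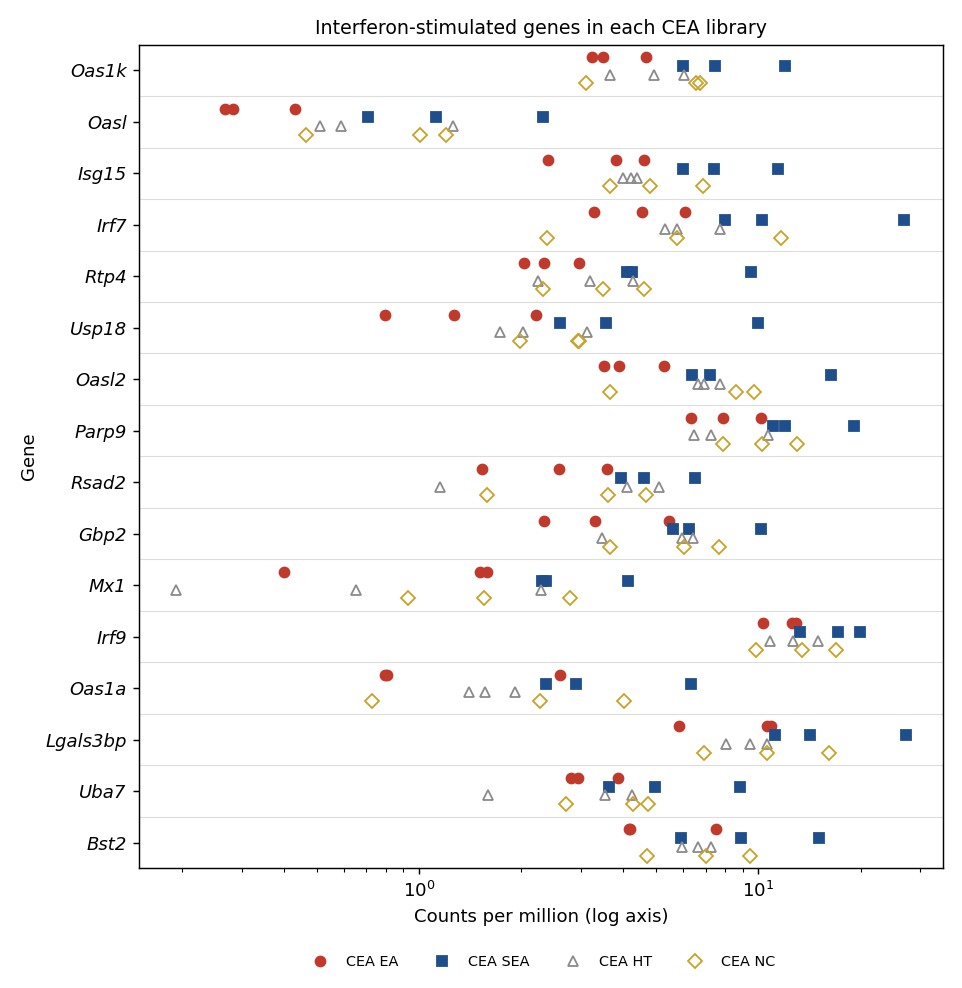
CPM on a log axis of the 16 interferon-stimulated genes lower in EA at an unadjusted p under 0.05, 1 point per CEA library (EA red circles, SEA blue squares, HT grey triangles, NC yellow diamonds). SEA 2 is the highest EA or SEA library for all 16 genes, the HT and NC points lie mostly across the EA range and the lower SEA range, and EA and SEA overlap for Oas1a, Uba7 and Bst2.

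The size of this difference and the count of members varied with single libraries. SEA 2 was the highest of the 6 libraries for 48 of 55 members and EA 2 the lowest for 32. Median deviations from each gene's mean over all 24 libraries, on the log2 scale, were -0.19, -0.61 and 0.03 in EA and 0.22, 0.86 and -0.01 in SEA. EA 3 thus lay level with SEA 3, and the groups overlapped at the level of the list. Without SEA 2, 45 of 54 members were below 0, against 47.1% of all genes, 7 were lower at an unadjusted p under 0.05, against 0.845% of all genes, and the median was -0.27. Without EA 2, 51 of 56 were below 0, against 53.3% of all genes, 9 were lower at an unadjusted p under 0.05, against 1.202%, and the median was -0.46. Without SEA 3 the count rose to 26 of 55, against 1.77% of all genes, and the median was -0.75, and without EA 3 it was 20 of 55, against 1.41%, with a median of -0.68. It was 10 of 56 without EA 1, against 0.708%, and 13 of 54 without SEA 1, against 0.634%. Without both libraries numbered 2, 40 of 55 were below 0, 3 had an unadjusted p under 0.05, against 2.63% of all genes in that fit, and the median was -0.16. SEA 2 also held the most choroid plexus and striatal RNA and EA 2 the lowest mitochondrial share, and the part of these in the result was not tested. Of the 55 members, 49 had a higher mean in SEA than in HT and 37 a lower mean in EA than in HT. The HT libraries had median deviations of -0.07, -0.41 and 0.16 and the NC libraries of 0.07, 0.23 and -0.40, a spread within unneedled groups that covers EA 1, EA 3, SEA 1 and SEA 3.

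**Figure D3:**
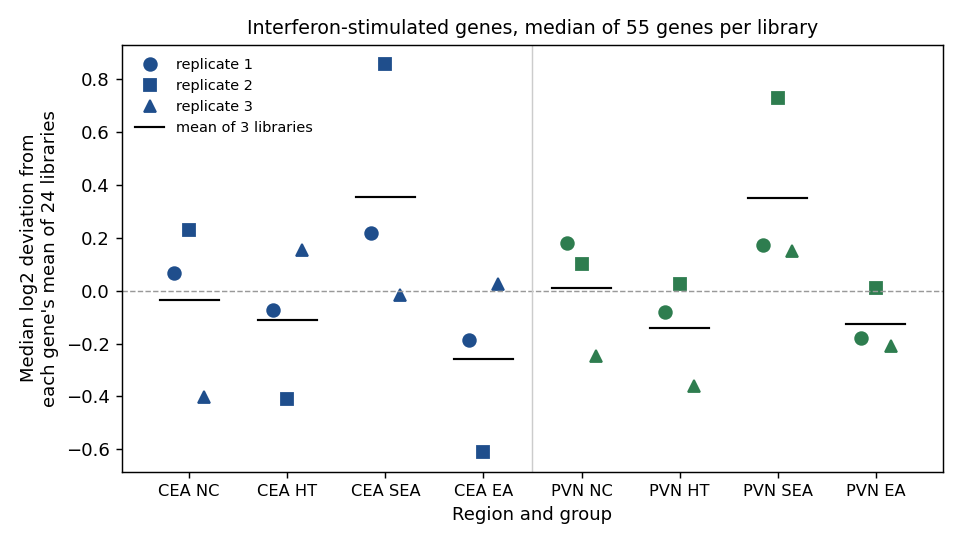
Median log2 deviation of 55 interferon-stimulated genes from each gene's mean over 24 libraries, by region and group (CEA blue, PVN green; circle, square and triangle are replicates 1, 2 and 3; the bar is the mean of 3 libraries). SEA 2 stands highest in both regions, at 0.86 in the CEA and 0.73 in the PVN, and EA 2 of the CEA is the lowest of all, at -0.61.

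In the PVN the same list lay the same way. Whether PVN and CEA libraries of 1 number come from the same rats was not settled by the counts and correlations given below. The PVN counts are therefore not given as an independent repeat. Of 56 members tested there, 55 were below 0, against 50.3% of PVN genes, 27 had an unadjusted p under 0.05 and were lower in EA, against 3.0% of PVN genes, and the median log2 fold change was -0.47. All 16 CEA genes were below 0 in the PVN, and 15 had an unadjusted p under 0.05 there, Mx1 being the exception. Isg15 in the PVN was at 4.82, 6.11 and 4.63 CPM in EA and at 7.25, 14.4 and 6.60 CPM in SEA. Irf7 in the PVN was at 6.41, 6.90 and 4.84 CPM in EA and at 10.002, 22.8 and 9.63 CPM in SEA. As in the CEA, the SEA library numbered 2 was the high one. In the interaction test of CEA against PVN, 0 of 56 members had an unadjusted p under 0.05, against 2.34% of all genes, and the smallest was 0.147. The median difference between regions was -0.10 on the log2 scale. Across all 17204 genes, 403 (2.34%) differed between regions at an unadjusted p under 0.05 and 0 at an adjusted p (edgeR; smallest 0.9999), while DESeq2 called 2.

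A few genes of this system were near 0 in some libraries and high in others of 1 group. Ifit1 in the SEA libraries had 62, 1 and 35 counts in the CEA and 55, 1 and 39 counts in the PVN. LOC103690108, a gene of the histocompatibility region, had 0, 4 and 585 counts in the SEA libraries of the CEA and 0, 1 and 1146 counts in those of the PVN. In EA it had 361, 301 and 481 counts in the CEA. Its log2 fold change in the CEA was 0.69 ± 1.44 (SE) and became 7.51, with an adjusted p of 0.0329 in edgeR, when SEA 3 was left out. In the SEA libraries the near-zero counts had the same numbers in both regions. For Ifit1 the same held in EA, with 19, 0 and 1 counts in the CEA and 18, 1 and 0 in the PVN, and in NC, with 0, 57 and 1 in the CEA and 4, 27 and 0 in the PVN. In HT the counts were 37, 7 and 48 in the CEA and 33, 43 and 6 in the PVN, so the low library was HT 2 in the CEA and HT 3 in the PVN. With PVN HT 2 and 3 exchanged, the Ifit1 counts of HT pair as well, 37 with 33, 7 with 6 and 48 with 43. Over all genes tested, deviations from the group mean in same-numbered CEA and PVN libraries had correlations of 0.22, 0.01 and 0.07 in SEA and of 0.16, -0.01 and -0.14 in EA.

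**Figure D4:**
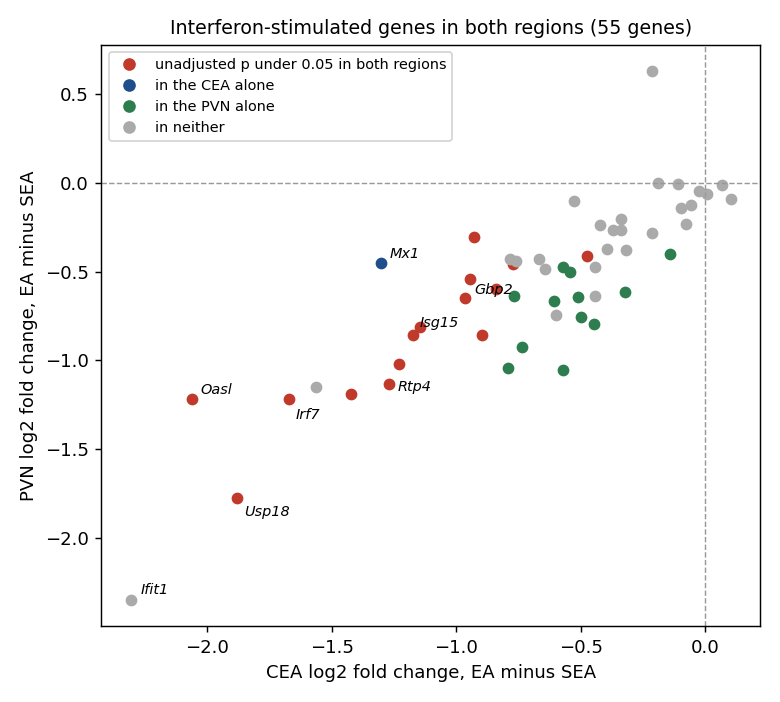
Log2 fold change of EA against SEA in the CEA (horizontal axis) and in the PVN (vertical axis) for 55 interferon-stimulated genes, coloured by the region in which the unadjusted p was under 0.05. Most points lie below 0 on both axes, 15 genes are red (both regions) and Mx1 alone is blue (CEA only).

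Of 28 neuropeptide and receptor genes of the CEA tested, 0 had an unadjusted p under 0.05, against 1.99% of all genes, with log2 fold changes from -0.59 to 0.69 and a median of 0.02. Sst, the somatostatin gene, was at 177, 146 and 173 CPM in EA and at 204, 190 and 109 CPM in SEA. Prkcd, which marks a class of CEA neurons and is also strong in the thalamus, was at 98.4, 486 and 174 CPM in EA and at 163, 48.1 and 550 CPM in SEA. The libraries high in Prkcd, EA 2 and SEA 3, were those with the highest thalamic marker levels, and the part of these in the result was not tested. Nts, the neurotensin gene, was at 18.6, 12.9 and 17.1 CPM in EA and at 19.8, 12.3 and 6.54 CPM in SEA. The somatostatin receptor Sstr2 was at 4.39, 3.81 and 4.37 CPM in EA and at 7.58, 7.65 and 3.94 CPM in SEA, with a log2 fold change of -0.59 ± 0.28 (SE) and an unadjusted p of 0.0710. SEA 3 lay within the EA range for Sstr2.

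Opioid peptides and receptors are the classical mediators of acupuncture analgesia, and 0 of 8 had an unadjusted p under 0.05, against 1.99% of all genes. Penk, the enkephalin precursor, was at 716, 474 and 704 CPM in EA and at 662, 957 and 343 CPM in SEA, with SEA libraries both above and below all EA libraries. Pdyn, the dynorphin precursor, was at 164, 96.7 and 152 CPM in EA and at 194, 191 and 83.9 CPM in SEA. Oprd1, the delta receptor, was at 3.60, 3.41 and 3.74 CPM in EA and at 6.40, 6.52 and 2.99 CPM in SEA, with a log2 fold change of -0.55 ± 0.31 (SE). Oprm1, the mu receptor, was at 5.97, 9.89 and 4.76 CPM in EA and at 6.86, 5.90 and 9.54 CPM in SEA. Each of these genes overlapped between the groups, and 7 of the 8 were below 0, against 48.8% of all genes, with a median of -0.10. SEA 2 and SEA 3, the libraries highest and lowest in Penk, also had the highest and lowest summed striatal markers, at 7436 and 2538 CPM. Pdyn and Oprd1 were lowest in SEA 3 too, and the part of striatal tissue in these values was not tested.

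Of the stress axis genes, 7 corticotropin-releasing hormone and corticosteroid receptor genes were tested and 0 had an unadjusted p under 0.05, against 1.99% of all genes. Crh itself was at 2.16, 2.74 and 2.78 CPM in EA and at 3.16, 1.82 and 0.630 CPM in SEA, with a log2 fold change of 0.46 ± 0.49 (SE). SEA 1 was above and SEA 2 and SEA 3 were below all EA libraries for Crh, and the value was 0.06 without SEA 3 and 1.06 without SEA 1. Hsd11b1, which regenerates active glucocorticoid, had a log2 fold change of 0.21 and the mineralocorticoid receptor Nr3c2 one of -0.27, at unadjusted p of 0.171 and 0.131. Among 15 genes that respond to glucocorticoids, 2 were higher at an unadjusted p under 0.05 and 0 lower, against 1.15% and 0.839% of all genes, with a median of 0.10. Mt2A, a metallothionein, was at 104, 45.5 and 34.5 CPM in EA and at 25.4, 29.9 and 25.1 CPM in SEA. Sult1a1, a phenol sulfotransferase, was at 48.2, 21.3 and 13.2 CPM in EA and at 11.2, 13.5 and 13.4 CPM in SEA. EA 1 was the high library for both, and without it the log2 fold change of Mt2A went from 1.21 to 0.58 and that of Sult1a1 from 1.14 to 0.45.

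Of 18 immediate early genes, 1 was lower and 0 higher at an unadjusted p under 0.05, against 0.839% and 1.15% of all genes, with 12 below 0, against 48.8%, and a median of -0.18. That gene was Npas4, a transcription factor induced by synaptic activity, at 1.22, 0.267 and 0.397 CPM in EA and at 0.989, 7.34 and 0.867 CPM in SEA. Its log2 fold change of -2.29 was -0.57 without SEA 2 and -0.23 without both libraries numbered 2. Nr4a3, a nuclear receptor of this class, was at 4.46, 4.75 and 4.71 CPM in EA and at 5.21, 6.34 and 9.22 CPM in SEA, with a log2 fold change of -0.56 and an unadjusted p of 0.0571. Junb was at 43.2, 34.1 and 36.6 CPM in EA and at 50.6, 56.9 and 40.0 CPM in SEA. Both had higher levels in all 3 CEA NC libraries than in any EA library. Of 15 clock genes, 1 was higher and 1 lower at an unadjusted p under 0.05, against 1.15% and 0.839% of all genes. The repressor Cry1 was higher (log2 fold change 0.45, unadjusted p = 0.0245 in edgeR) and Ciart lower (log2 fold change -0.48, unadjusted p = 0.0289 in edgeR). Of 27 calcium and ErbB signalling genes, 1 differed at that threshold, against 1.99% of all genes. It was the kinase subunit Camk2g, at 11.4, 8.76 and 11.3 CPM in EA and at 6.99, 7.21 and 8.27 CPM in SEA. None of 19 GABA transmission genes, 22 glutamate receptor genes or 18 monoamine genes (0 of each) had an unadjusted p under 0.05, against 1.99% of all genes, and their medians lay between -0.02 and -0.01.

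Among cell type markers, the astrocyte genes Aldh1l1, a folate enzyme, and Gjb6, a gap junction protein, were higher in EA at an unadjusted p under 0.05, 2 of 10 tested, against 1.15% of all genes. Of the 10, 7 were above 0 and 3 below, with a median of 0.17. Aldh1l1 was at 24.7, 30.4 and 25.6 CPM in EA and at 18.8, 17.7 and 22.7 CPM in SEA, and Gjb6 at 85.8, 81.8 and 66.8 CPM in EA and at 51.0, 46.7 and 73.8 CPM in SEA. Aldh1l1 did not overlap between the groups and Gjb6 did. The summed astrocyte markers ranged from 4118 to 5257 CPM in EA and from 4175 to 4671 CPM in SEA. Of 12 microglial markers, 1 was higher at an unadjusted p under 0.05, against 1.15% of all genes. It was the complement subunit C1qb, at 69.03, 53.6 and 50.1 CPM in EA and at 39.8, 46.0 and 38.2 CPM in SEA. C1qb was also higher without overlap in the PVN, at a log2 fold change of 0.47. C1ql1, a synaptic organiser of the complement family used here as a precursor cell marker, was at 20.2, 16.2 and 23.7 CPM in EA and at 28.7, 25.8 and 29.7 CPM in SEA, with a log2 fold change of -0.47. C1ql1 was the 1 of 4 precursor cell markers lower at an unadjusted p under 0.05 and without overlap, against 0.839% and 3.81% of all genes, and the 4 had 2 above 0 and 2 below, with a median of -0.02. Of 6 blood genes 3 were above 0 and 3 below, with a median of 0.02. The summed level of the 7 blood genes in the table was 729 ± 131 CPM in EA and 808 ± 119 CPM in SEA (SD, n = 3 each). The haemoglobin gene Hbb, the 1 of the 6 tested that was higher at an unadjusted p under 0.05, against 1.15% of all genes, was at 4.32, 21.9 and 7.37 CPM in EA and at 2.77, 3.83 and 4.57 CPM in SEA, and its log2 fold change of 1.60 was 0.67 without EA 2.

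Lists of neighbouring tissue moved with single libraries. All 9 striatal markers were below 0, with a median of -0.37, but 7 of 9 were above 0 without SEA 2, with a median of 0.09. All 7 choroid plexus markers tested were below 0, with a median of -1.47, and all 7 were above 0 without SEA 2, with a median of 1.34. The 13 mitochondrial genome genes had 12 below 0 and a median of -0.25. The difference in mitochondrial share, -1.46 points for EA minus SEA, was 1.44 points without EA 2. The 77 cytosolic ribosomal protein genes and 89 nuclear genes of oxidative phosphorylation had medians of -0.06 and -0.05 and 0 members at an unadjusted p under 0.05, against 1.99% of all genes.

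**Figure D5:**
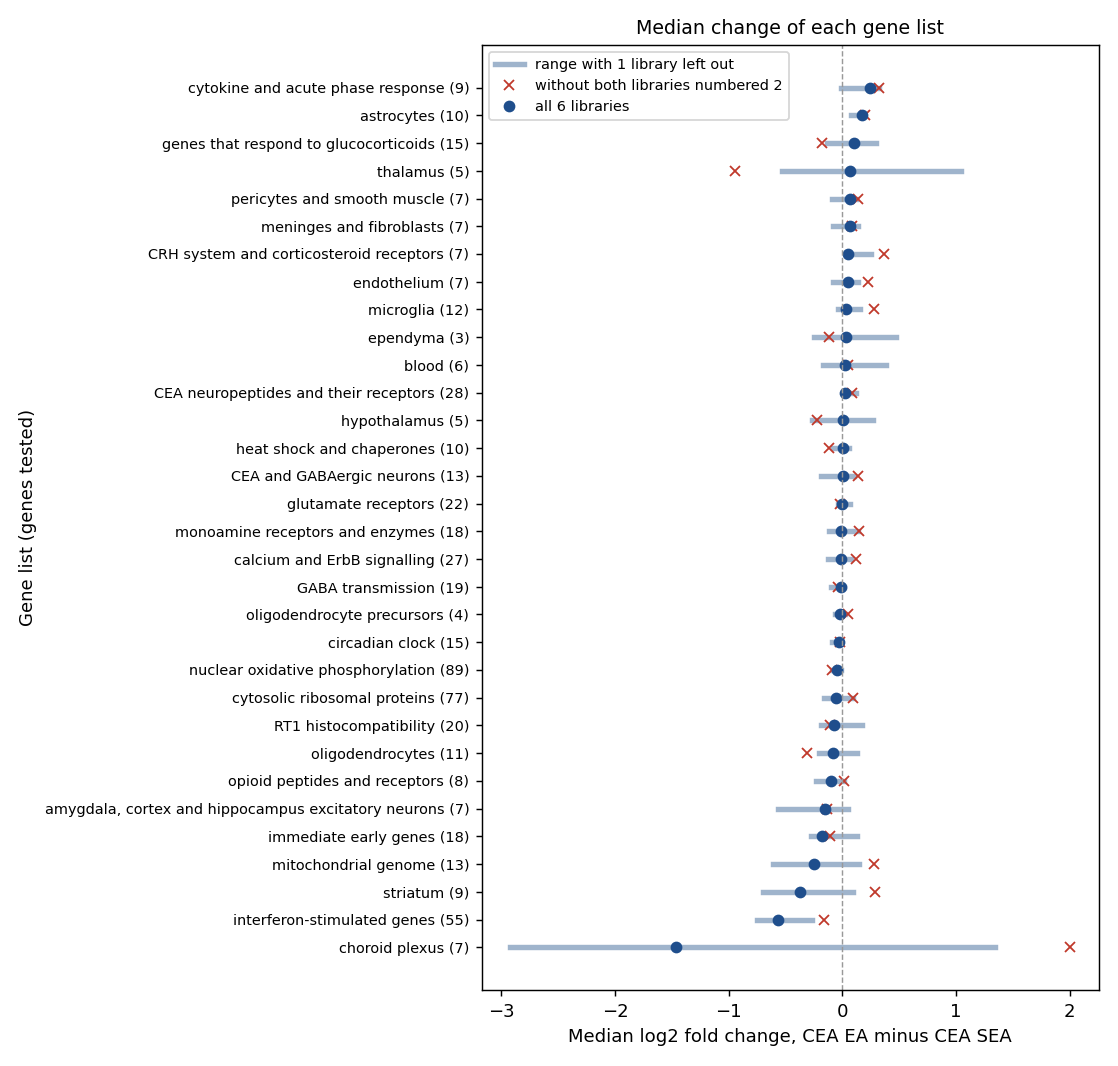
Median log2 fold change of EA against SEA for each gene list (number of genes tested in brackets), with all 6 CEA libraries (blue points), the range when 1 library is left out (bars) and the value without both libraries numbered 2 (red crosses). The interferon-stimulated genes lie at -0.57 with bars from -0.75 to -0.27 and a cross at -0.16, while the choroid plexus and striatum bars cross 0.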

How the data were processed

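The authors sequenced strand-specific mRNA libraries, aligned reads with HISAT2 and counted them per gene with featureCounts (per the labels; versions not given in the sources used here), and deposited 1 table of raw counts for 24 libraries. The methods name the rat build mRatBN7.2 and the labels a human build, and the table's largest gene end on chromosome 1, 282724300, was not checked against a genome, so the build of the deposited coordinates is uncertain. A second header line inside the table, 1 line in which CEA EA 2 and 3 are exchanged, was left out; columns follow the first header.

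Counts were filtered with filterByExpr, scaled by TMM and tested by edgeR's quasi-likelihood test (edgeR 4.0.16, R 4.3.3), two-sided, on the 3 EA and 3 SEA libraries, with Benjamini-Hochberg adjustment over all genes tested and a threshold of 0.05; SE is the fold change over the root of F. The region difference was the interaction term over 12 libraries, taken as independent. The study's methods divide 12 rats among all groups, so CEA and PVN libraries may share animals, which the main fit does not model. DESeq2 1.42.0 and limma 3.58.1 (voom) served as alternatives. CPM levels use TMM factors over all 24 libraries. In simulated counts with the real means for EA against SEA, 91 of 100 genes changed 4-fold and 49 of 100 changed 2-fold were called among 16322, with 17 unchanged genes called and 784 unchanged genes at an unadjusted p under 0.05. Genes were drawn independently, without variation shared across a library, and the real libraries gave 324 genes at that threshold. The simulated rates may therefore not hold for these libraries.

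Named genes were, in each direction, the 10 with the smallest p, no overlap and at least 1 CPM in the higher group, with the up to 3 smallest p of each list, genes called in any alternative, and all peptide, opioid and stress axis genes. Members and lists were chosen with earlier results of these data known, and the interferon list after the leading genes were seen. No library pair held identical values (0 pairs).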

Additional observations from a re-analysis of the deposited data

How the results depend on the processing

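No gene passed an adjusted p under 0.05 in edgeR under any other scaling (RLE, upper quartile, no mitochondrial genes in the library size), filter, joint fit of 4 or 8 groups, or limma voom (0 in each); DESeq2 called 5, and leaving out 1 library gave 0 to 1, the 1 being LOC103690108 without CEA SEA 3. At an unadjusted p under 0.05, where 324 genes were counted, voom gave 777, the fit of all 8 groups 563, and leaving out 1 library 265 to 590, the highest without CEA SEA 3. Leaving out both libraries numbered 2, chosen after seeing the data, gave 822 and 0 after adjustment. In the order of the first header the replicate numbers did not pair the CEA libraries (correlations of deviations 0.07, -0.32 and -0.18 for numbers 1 to 3). With CEA EA 2 and 3 exchanged as in the second header, these correlations were 0.07, 0.20 and 0.35. A replicate block gave 201 genes at an unadjusted p, or 499 with the exchange, and 0 after adjustment in both. With the exchange the CEA and PVN EA libraries of 1 number had correlations of 0.16, 0.17 and 0.12; which header is right is not settled here. For the difference between regions, counted at 403, the blocks gave 311 within and 333 across regions, leaving out 1 library gave 288 to 690 (highest without CEA SEA 3) with 0 to 1 after adjustment (Nhp2 without PVN SEA 3), and DESeq2 called 2. Of 59 genes, 57 kept their direction under every alternative in which they were tested. Many were chosen for no overlap or a small p in these same libraries, so a kept direction was likely in advance. The exceptions were near 0: Prkcd, at -0.0036, went to 0.0039 without a filter, 0.0022 with the 1 CPM filter, 0.0977 and 0.292 with the replicate block as numbered and exchanged, and -0.89 to 1.27 with 1 library left out, above 0 without EA 1 (0.376), EA 3 (0.213) or SEA 3; Penk, at -0.03, went to 0.12 in voom, 0.0654 and 0.0621 with the blocks, 0.51 without both libraries numbered 2, and -0.334 to 0.347 with 1 left out, above 0 without EA 2 (0.134) or SEA 2. The mitochondrial share, 1.46 points lower in EA, differed by -3.34 to 1.44 points when 1 library was left out. The cause was not tested. With 3 libraries a group, simulated 2-fold changes were called in 49 of 100 genes, with 17 unchanged genes also called. Genes were simulated independently, so this rate may not hold for libraries that differ in tissue content, and changes under 2-fold were not simulated.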
